A study of Mus musculus with 6 samples.

Results

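Target peaks in 8 transcripts of excitatory neurons are described here: the 4 CaMKII subunit genes Camk2a, Camk2b, Camk2d and Camk2g, the CaMKII inhibitor gene Camk2n1, the neurogranin gene Nrgn, and the vesicular glutamate transporter genes Slc17a7 (VGLUT1) and Slc17a6 (VGLUT2). A peak counted for a gene when its midpoint lay between the first and last annotated base of that gene on mm10, here called the gene span. By this rule 21 of the 2197 deposited peaks (0.956%) belonged to 5 of the 8 genes, and 3 genes had none. The 8 are among 21887 nuclear protein-coding genes of the RefSeq table. The genes were proposed by their function, with earlier results of these data known.

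The RNA came from cortex of mice at postnatal day 14, with pyramidal neurons named as the cell type. All 6 libraries share 1 genotype: a VGLUT2-Cre driver that switches on a conditional Spy3-AGO2 allele, which gives AGO2 a peptide tag that a SpyCatcher3 resin captures. The groups are 2 AGO2-bound target libraries, 2 AGO2-bound miRNA libraries and 2 input libraries of whole lysate, so no library lacks the tag and no group differs in treatment or age. The target libraries are represented by 1 peak list, with no value per library and the same score, 0, for every peak. A number of peaks therefore has no replicate and no test between groups, and it is not stated in the sources used here whether the input entered the calling. Transcript abundance was not measured in the files used, so the number of peaks could not be set against expression. Each library pools RNA over cells, so fewer cells that express a gene and less of its RNA per cell cannot be told apart. A Cre driver also marks cells by past as well as present activity of its promoter.

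CaMKII is a kinase of many subunits that calcium-loaded calmodulin switches on and that can then stay active through its own phosphorylation; it is central to synaptic strengthening in cortical excitatory neurons. Camk2a and Camk2b encode its main neuronal subunits, while Camk2d and Camk2g are expressed more widely. Camk2n1 encodes a small protein that blocks the active kinase, and neurogranin holds calmodulin in dendritic spines. The messenger RNAs of Camk2a and Nrgn are known to travel into dendrites. VGLUT1 and VGLUT2 load glutamate into synaptic vesicles, and in cortex VGLUT1 takes over as the main form after birth, with VGLUT2 most abundant in thalamic neurons.

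Most of the 8 genes carried a peak, but they differed widely in number. Camk2n1 had 10 peaks, Slc17a7 had 5, Camk2a had 4, and Camk2b and Nrgn had 1 each. Camk2d, Camk2g and Slc17a6 had 0. By role, the 4 kinase subunit genes together carried 5 peaks in 2 genes, fewer than the single inhibitor gene. With peaks up to 50 nt apart joined, the inhibitor gene had 6, while Camk2a kept 4 and Camk2b 1, so most of that contrast was lost. At least 1 peak was present in 5 of 8 genes, against 4.30% of all protein-coding genes. At least 2 peaks were present in 3 of 8, against 1.37%, and at least 5 in 2 of 8, against 0.292%. The median was 1 peak per gene here and 0 over all protein-coding genes. The 8 genes were chosen as neuronal genes and are known to be well expressed in brain, so these shares describe them and test nothing.

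**Figure D1:**
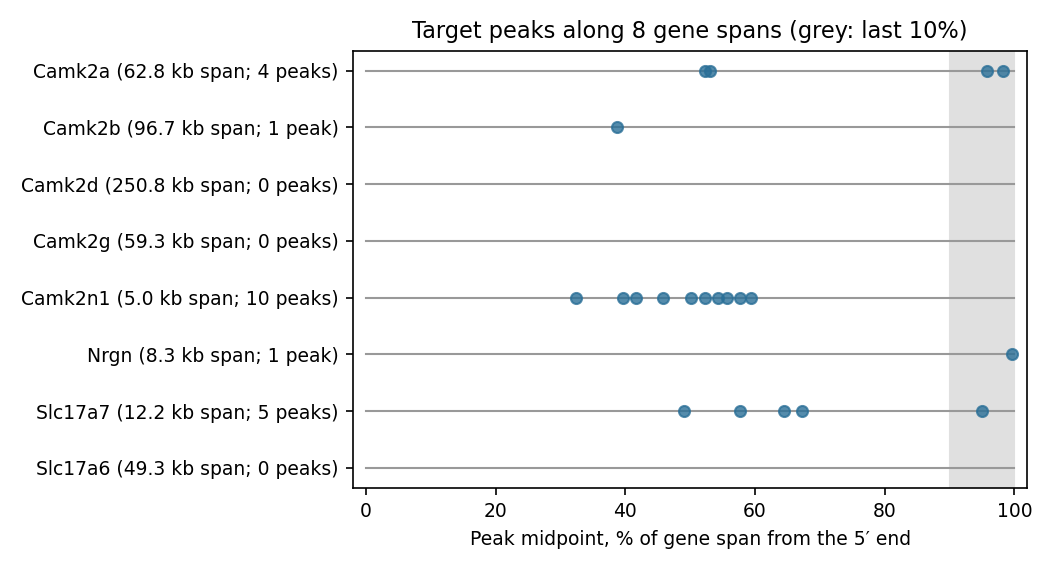
Target peaks along the 8 gene spans. The x axis gives each peak midpoint as % of the span from its 5′ end, each dot is 1 of the 21 peaks, and the grey band marks the last 10% of the span. Of the 21 dots 4 lie in the band, and the 10 of Camk2n1 lie between 32.3% and 59.3%.

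Camk2n1 carried the densest run. Its span on chromosome 4 (138455148 to 138460126) is 4.98 kb long, and all 10 peaks lay on the plus strand within 1.42 kb of it. The first began at 138456717 and the last ended at 138458139. Peak width ran from 30 to 96 nt (median 63.5 nt), and together the peaks covered 640 nt, or 12.9% of the span and 45.0% of the stretch from first to last peak. Gaps between neighbours ran from 24 to 280 nt with a median of 51 nt. The widest gap separated the first peak from the second; the last 7 peaks, from 138457380 on, followed one another at gaps of 24 to 118 nt. Since 4 of the 9 gaps were at most 50 nt, joining peaks across such gaps left 6. The stretch ended 1987 nt before the 3′ end of the span, and no peak lay in those bases or in the first 1569 nt.

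Few genes matched this density. Among the 941 protein-coding genes with a peak, Camk2n1 ranked 9 by number of peaks, a place it shared with 4 others, and 2 by peaks per kb of span, at 2.01 per kb. The median gene with a peak had 1 peak, a span of 60.5 kb and 0.0238 peaks per kb. Of the 13 genes with at least 10 peaks, 0 had a shorter span than Camk2n1, and their median span was 70.6 kb. These ratios use the whole span, introns included, and so favour genes with short introns.

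**Figure D2:**
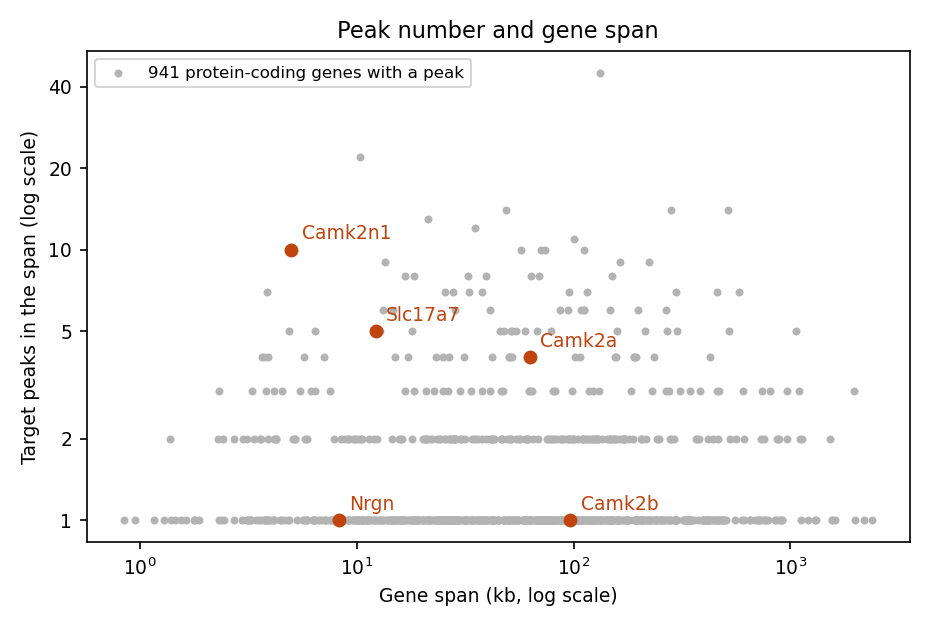
Number of target peaks against gene span for the 941 protein-coding genes with a peak, both axes on log scales. The 5 genes described here that carry peaks are in orange; Camk2n1, with 10 peaks in 4.98 kb, lies at the upper left.

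The genes most like Camk2n1 in peak load were Rtn3, Nptn and Rab6b, taken as those with 10 peaks and the nearest number of covered bases. Their peaks covered 585 nt, 810 nt and 852 nt, against 640 nt in Camk2n1. They are far longer, with spans of 57.4 kb, 70.6 kb and 73.6 kb, and their 10 peaks were spread over 19990 nt, 29036 nt and 3791 nt. Of these peaks, 7, 8 and 10 lay in the last 10% of the span, against 0 in Camk2n1. The likeness is therefore one of number and covered bases only.

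Slc17a7, the gene for the main vesicular glutamate transporter of the mature cortex, had 5 peaks on chromosome 7 (span 45163921 to 45176139, 12.2 kb). All lay on the plus strand, which is also the strand of the gene in the RefSeq promoter table. They were 34 to 55 nt wide (median 46 nt) and covered 225 nt, or 1.84% of the span. The first 4 were spread over the middle of the gene. These were at 45169903 to 45169936, 45170936 to 45170990, 45171776 to 45171821 and 45172107 to 45172153, which places their midpoints 5998.5, 7042, 7877.5 and 8209 nt after the listed start site. The last, at 45175515 to 45175557, lay 0.603 kb from the 3′ end of the span. Gaps ran from 285 to 3361 nt, so unlike in Camk2n1 no neighbours came within 50 nt. With 0.409 peaks per kb, Slc17a7 ranked 51 of the 941 genes. Only 1 of its peaks reached 50 nt, so its count rests on peaks below that width. All 5 widths lay between the quartiles of all peaks, 33 and 80 nt.

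**Figure D3:**
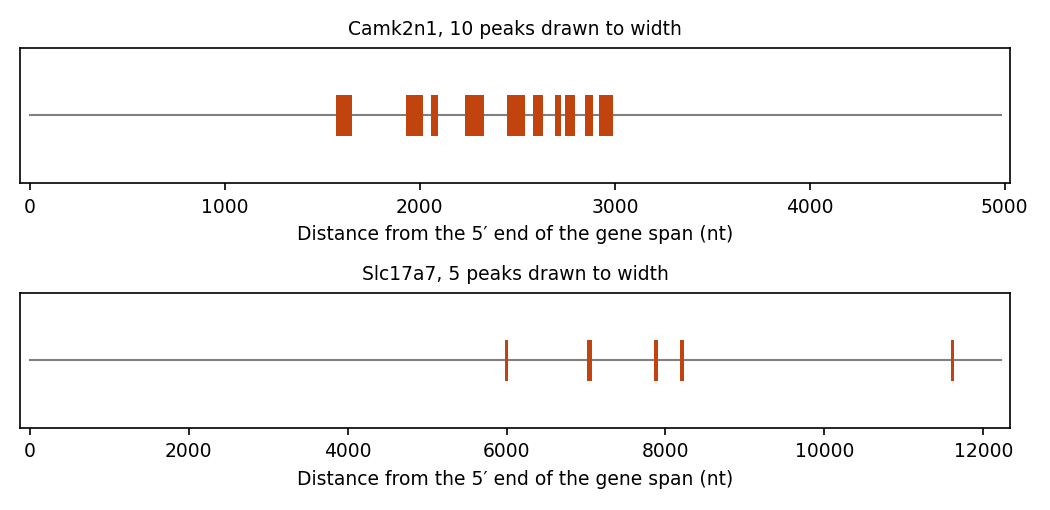
Peaks of Camk2n1 and Slc17a7 drawn to width along the gene span. The x axes give distance from the 5′ end of the span in nt and differ in length; the 10 Camk2n1 peaks fill 45.0% of 1.42 kb, while the 5 Slc17a7 peaks fill 3.98% of 5.66 kb.

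Slc17a6, whose product gives the Cre driver its name, had 0 peaks in its span of 49.3 kb on chromosome 7 (51621830 to 51671126). No peak lay within 20 kb of it on either side. The same list thus held 5 peaks for VGLUT1 and none for VGLUT2. The list holds only called peaks, so a count of 0 does not show that AGO2 left the transcript unbound, and the difference between the transporters was not tested.

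Camk2a, the subunit gene whose messenger RNA is the classic example of a dendritic transcript, had 4 peaks on chromosome 18 (span 60925307 to 60988152, 62.8 kb), all on the plus strand. They fell into 2 pairs. The first pair, at 60958143 to 60958193 and 60958574 to 60958657, lay in the middle of the span, at 52.3% and 53.0% of its length, 380 nt apart. The second, at 60985473 to 60985566 and 60987006 to 60987071, lay near the 3′ end, with midpoints 2.63 and 1.11 kb from it. An interval of 26.8 kb without a peak separated the pairs. The peaks were 51, 84, 94 and 66 nt wide, so the widest was the first of the 3′ pair, and they covered 295 nt, or 0.469% of the span.

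An annotated miRNA hairpin, Mir6982, ends in Camk2a at 60958140, so that 2 bases separate it from the first peak. The hairpin itself held 0 peaks, and both its mature arms had 0 counts in both miRNA libraries. The same held for Mir7220, a second hairpin in Camk2a that lies 4210 nt before that peak. Of 66854 counts in replicate 1 and 75658 in replicate 2, a count of 0 allows a share of up to 0.00449% and 0.00397%, counting error only. Whether the mid-gene peaks are exonic was not tested, since only gene spans were used.

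Camk2b had 1 peak in 96.7 kb on chromosome 11 (span 5969629 to 6066357), on the minus strand, which is the listed strand of the gene. It spanned 71 nt, from 6028892 to 6028962, and lay 36821 nt after the listed start site and 59.3 kb before the 3′ end. It was the member peak farthest from a 3′ end, and no peak lay in the last 10% of the Camk2b span. Camk2a and Camk2b, which encode subunits of the same holoenzyme, thus differed in number of peaks. In the last 10% lay 2 of 4 against 0 of 1, and a single peak cannot show a difference in position.

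Nrgn had 1 peak in 8.25 kb on chromosome 9 (span 37544493 to 37552745), again on the minus strand of the gene. It was 44 nt wide, from 37544497 to 37544540, and stopped 4 nt short of the 3′ end of the span. It was the member peak closest to a 3′ end. As the sole peak of the gene, it is lost if only peaks of at least 50 nt are counted.

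The more widely expressed subunit genes had no peaks. Camk2d, the longest of the 8 genes with 251 kb on chromosome 3 (126595487 to 126846326), had 0, as had Camk2g with 59.3 kb on chromosome 14 (20734873 to 20794157). No peak lay within 20 kb of either. The longest of the 8 genes thus had no peak, and the shortest, Camk2n1, had the most.

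Camk2g is a published target of miR-219a-5p, a miRNA abundant in oligodendrocytes, and Camk2d of miR-145a-5p, a miRNA of smooth muscle. The AGO2-bound miRNA libraries held few of either: miR-219a-5p had 16 counts in replicate 1 and 16 in replicate 2, a share of 0.0225% ± 0.00197 (SD, n = 2), and miR-145a-5p had 4 and 1, a share of 0.00365% ± 0.00330 (SD, n = 2). Another miRNA gene, Mir7055, lies inside Slc17a7 before its last peak (45173303 to 45173361). Both its arms had 0 counts in both libraries, and 1149 nt separate it from the nearest peak. The mature sequences, from RefSeq on GRCm38.p6, are shown 5′ to 3′ for the miRNA tied to Camk2g and for the arms encoded within Slc17a7, with the seed, bases 2 to 8, in capitals. The 3 seeds differ.
miR-219a-5p: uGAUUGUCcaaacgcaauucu
miR-7055-5p: uCAGUGGGuuaucugaguugg
miR-7055-3p: uUGCUACUuugauaccccaccag
Whether any peak holds a match to a seed was not tested, since the sequence under the peaks was not used here.

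Median width was close to that of the whole list, and each gene had its peaks on 1 strand. The plus strand held 19 of the 21 peaks and the minus strand 2. The promoter table lists the strand of 5 of the 8 genes, and the 7 peaks in those genes all lay on it, against 89.1% of 1089 peaks in single protein-coding spans with a listed strand. None of the 21 peaks lay in a second gene span. The median width was 52 nt (range 30 to 96 nt), against 53 nt (range 15 to 407 nt) for all peaks. No member peak was under 30 nt, while 23.1% of all peaks were.

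Position along the gene differed from that of all peaks as a share of the span, while in bases the comparison turned on Camk2n1. Of the 21 peaks, 4 (19.0%, exact Clopper-Pearson 95% interval 5.45 to 41.9) lay in the last 10% of the span, read along the strand of the gene where listed and of the peak otherwise. Over all 1494 peaks in a single protein-coding span the share was 65.8%. Within the last 5 kb lay 16 of the 21 (76.2%), against 70.9% of all. Camk2n1 is shorter than 5 kb, so its peaks could not fall outside that window, and it supplied 10 of those 16. Without it, 4 of 11 peaks (36.4%, exact interval 10.9 to 69.2) lay in the last 10% and 6 (54.5%) in the last 5 kb. In spans of at most 15 kb, a class that holds Camk2n1, Nrgn and Slc17a7, the share in the last 10% was 47.8% of 291 peaks. Of the same peaks 94.5% lay in the last 5 kb, a window that takes up much or all of such spans. Peaks of 1 gene share a transcript, so these intervals, which treat them as independent, are too narrow. By gene, the median peak position lay in the last 10% in 1 of 5 genes, Nrgn, against 58.0% of 812 genes. The median position was 74.4% of the span in Camk2a, 64.5% in Slc17a7, 51.2% in Camk2n1 and 38.7% in Camk2b. Camk2a and Camk2n1 have an even number of peaks, so their medians lie midway between the middle peaks, where no peak sat.

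Partners of the 8 genes were taken from lists of 4 kinds. In the calmodulin and CaM kinase list 10 of 18 genes had a peak, against 4.30% of all protein-coding genes, with a median of 1. Calm2, a calmodulin gene, had 9 peaks, and the calmodulin gene Calm3 had 1. Calcineurin, the calcium-dependent phosphatase that opposes CaMKII at synapses, followed with 6 peaks in its catalytic subunit gene Ppp3ca and 6 in its regulatory subunit gene Ppp3r1. A second catalytic subunit gene, Ppp3cb, had 3. All 6 peaks of Ppp3ca and all 6 of Ppp3r1 lay in the last 10% of their spans, as did 2 of the 3 in Ppp3cb, against 0 of 10 in Camk2n1. These windows differ in length, since the spans are 268, 41.1 and 47.2 kb against 4.98 kb in Camk2n1. In bases, the Camk2n1 peak farthest from the 3′ end lay 3.37 kb from it. At least 2 peaks were present in 6 of the 18 genes, against 1.37% of all protein-coding genes.

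Among 12 partners and substrates of CaMKII at the postsynapse 6 had a peak, with a median of 1. The share over all protein-coding genes, to be set beside this list and the next ones, was 4.30%. Grin2b, the NMDA receptor subunit that docks active CaMKII, had 7, all in the last 10% of its span. Grin2a, another subunit of that receptor, had 4, and Cacng2, the AMPA receptor auxiliary subunit stargazin, had 2. The Grin2a peaks lay on both strands, 3 on minus and 1 on plus, so not all of them can lie in its transcript. No strand is listed for Grin2a in the promoter table. Among 12 other messenger RNAs known from dendrites 5 had a peak, with a median of 0. In this list Shank1 had 5, Ddn and Map2 had 3 each, and Dlgap2 had 2. Among 12 genes of vesicular transmitter transport and glutamate supply 3 had a peak, with a median of 0: Glul, the glutamine synthetase gene of astrocytes, the glutamine transporter gene Slc38a2, and Slc6a17, a vesicular amino acid transporter gene, had 2 each. The other vesicular transmitter transporter genes of that list, Slc17a8, Slc32a1, Slc18a1, Slc18a2 and Slc18a3, had 0.

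**Figure D4:**
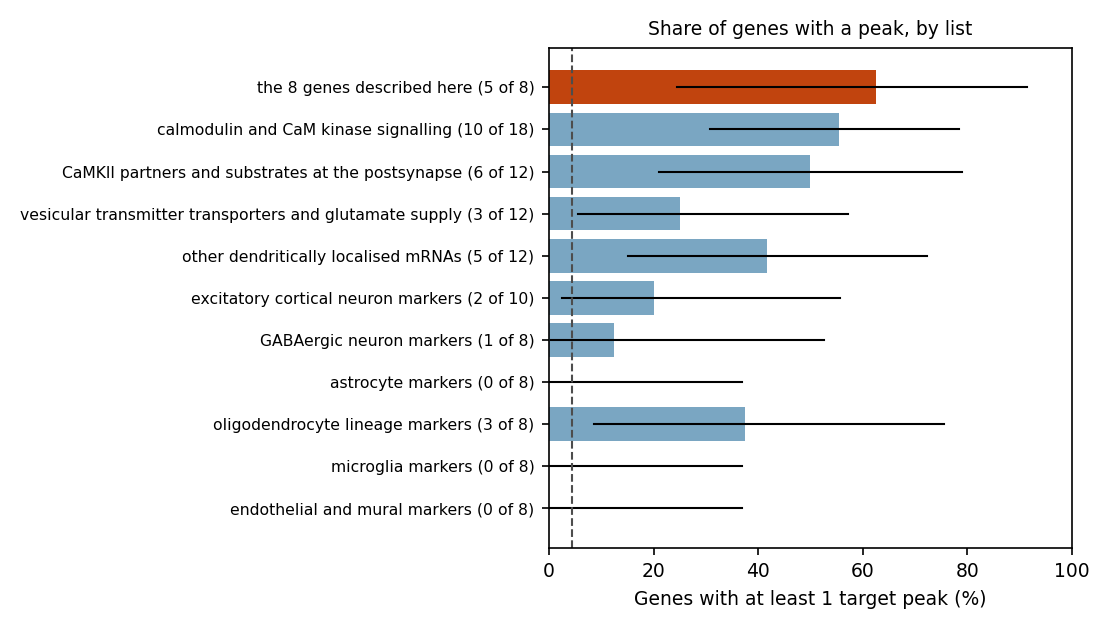
Share of genes with at least 1 target peak in the 8 genes described here and in each list. Bars give the share in %, black lines its exact 95% interval over genes, and the dashed line the 4.30% of all protein-coding genes. The lists are short, so the intervals are wide: 24.5 to 91.5% for the 8 genes and 30.8 to 78.5% for the calmodulin list.

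Marker genes with a peak were too few to check the labelled cell type. Over all protein-coding genes 4.30% had a peak. Of 10 further markers of excitatory cortical neurons 2 had a peak, among them Tbr1 with 1, and of 8 GABAergic neuron markers 1 had, Sst with 1. Astrocyte, microglia and vascular marker lists had 0 of 8 each. Oligodendrocyte lineage markers had 3 of 8, among them Mbp with 2 peaks and Cnp with 1. RNA of abundant myelin genes was thus in the same peak list as that of the neuronal genes, and its part in the counts above was not tested. The exact 95% intervals were 2.52 to 55.6% for the excitatory list and 0.316 to 52.7% for the GABAergic list. They were 8.52 to 75.5% for the oligodendrocyte list and 0 to 36.9% for each list without a peak. The lists are short and hand-picked, so the intervals are wide whatever the cell type. Their overlap therefore decides nothing about the cell types.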

How the data were processed

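The authors deposited 1 list of target peaks for the series, with start, end, strand and a score that is 0 throughout, and raw read counts per mature miRNA for the 2 miRNA libraries, whose name says that duplicates were kept. The submitters' processing notes name mm10, Bowtie2 2.4.2, STAR 2.5.2a, cutadapt 2.10, deepTools 3.1.3, UMI-tools and DESeq2 1.36.0 with no role. A caller of peaks is not given in the sources used here. Coordinates are printed counting from 1.

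Spans came from the RefSeq gene table on GRCm38.p6, the assembly of mm10, and strands from its promoter table. Peaks whose midpoint lay in a small noncoding RNA gene were not credited to a host gene. All 112 listed genes matched. Members and lists were chosen with earlier results of these data known. The text names all members, up to 4 genes with a peak per list and the 3 genes most like Camk2n1; Some genes under this rule are not reported here. Calm3, Ppp3cb and the transporter genes at 0 were added after their values were seen. No test between groups was possible. Python 3.11.15 and scipy 1.17.1 gave counts and exact 95% intervals. The assignment was checked on artificial peaks. The labels do not say whether replicates came from separate animals. Target and input libraries were not analysed here one by one.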

Additional observations from a re-analysis of the deposited data

How the results depend on the processing

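No paired analysis was possible because the peaks are 1 list with no value per library, and only the miRNA group has values for each replicate. Of 100 values recomputed under other settings, 12 moved: counts by more than 1.5 times, shares of peaks beyond the exact interval, and miRNA shares by more than 1 SD. The other 88 stayed within those limits, which are wide for 2 shares: the miR-145a-5p share with either replicate left out, and the share of peaks in the last 10% of the span, which was 36.4% without Camk2n1 against 19.0%, each moved by more than 1.5 times. With 2 replicates, leaving out either shifts a mean by less than 1 SD whatever the counts. The miRNA shares therefore could not pass their limit, and their place among the 88 shows nothing about stability. Counting any overlap, at least 50% of the peak, spans extended by 1 kb, peaks of at least 30 nt, or only peaks on the listed strand moved no count of the 8 genes by more than 1.5 times. The width and strand settings among these could remove no peak. The narrowest peak was 30 nt, all peaks in genes with a listed strand lay on it, and genes without one kept all their peaks. With peaks of at least 50 nt, 13 of the 21 peaks were kept, with 2 in the last 10% of the span; Slc17a7 kept 1 and Nrgn 0. Merging peaks up to 50 nt apart left 6 in Camk2n1. At least 2 peaks were present in 3 of the 8 genes and in 299 protein-coding genes (1.37%). In the lists, at least 2 were present in 6 of 18 calmodulin, 1 of 10 excitatory marker and 0 of 8 GABAergic marker genes. With the last 5 kb in place of the last 10%, 16 peaks (76.2%) counted as near the 3′ end. The Camk2n1 peaks among them could not fall outside, since its span is shorter than 5 kb. The setting without Camk2n1 and the class of spans up to 15 kb were chosen after the data were seen. The miR-219a-5p share was 0.0211% to 0.0239% and the miR-145a-5p share 0.00132% to 0.00598% with either replicate left out. The seed match search was not run, since no genome sequence was used here. The peak scores are all 0, so no stricter threshold of the authors could be set.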

Other observations

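The peak names carry numbers that rise with position on each chromosome strand, in all 42 combinations of chromosome and strand, up to 14469. The 2197 listed peaks use 15.2% of these numbers. What the other numbers stand for is not stated in the sources used here. From the first to the last peak of Camk2n1 the numbers ran from 3104 to 3118, and 10 of the 15 (66.7%) were listed. In Slc17a7 they ran from 5241 to 5261, with 5 of 21 (23.8%) listed, and in Camk2a from 13154 to 13177, with 4 of 24 (16.7%) listed. Over the 281 protein-coding genes with at least 2 peaks, all on 1 strand, the median share listed was 44.4%, and 101 of them were at or above the share of Camk2n1. Because numbers follow position, the 20 numbers between the outer Camk2a peaks and the 16 between the outer Slc17a7 peaks that are not in the list would fall inside those genes.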
